A study of Arabidopsis thaliana with 28 samples.

Results

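The xyloglucan endotransglucosylase/hydrolase (XTH) family of Arabidopsis thaliana holds 33 loci, XTH1 to XTH33. Its members were chosen by locus identifier, with no use of their values, and 24 of the 33 were among the 18310 genes of the deposited table. XTH1, XTH2, XTH3, XTH12, XTH13, XTH20, XTH21, XTH26 and XTH29 were not in the table and were not analysed here. The name of the deposited table marks a filter on counts per M reads (CPM), so a locus with low counts may be absent. Whole seedlings of the accession Col-0, grown for 3 days in darkness on nylon mesh in hydroponics, were treated with abscisic acid (ABA) at 10 µM or with ethanol alone (mock) and sampled 1, 4, 8, 12, 24, 36 and 60 h later, which gives 14 groups with 2 libraries each. Both treatments were applied to the same genotype in the dark, and tissues were not separated. The table gave RPKM, reads per kilobase of gene per M reads, so levels can be set side by side between genes. The library size implied by the RPKM was not the plain number of reads. For replicate 2 of ABA at 60 h it was 20.34 M, below the 22.02 M reads recovered in the genes of the table. The 28 libraries held 16.27 to 26.60 M recovered reads in the genes of the table, and the Pearson correlation of log2(RPKM + 1) across genes between the 2 libraries of a group was 0.975 to 0.990.

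Xyloglucan is a glucan decorated with xylose, galactose and fucose that coats and tethers cellulose in the primary wall of dicots. XTH enzymes cut a xyloglucan chain and either rejoin it with another chain (endotransglucosylase activity) or leave it cut by transfer to water (hydrolase activity), and they are studied in the elongating hypocotyl and root, in touch responses and in vascular development. The family is divided by phylogeny into groups I and II, whose studied members act as endotransglucosylases, group IIIA, known for hydrolase activity, and group IIIB. ABA, the hormone of water deficit and seed dormancy, restrains the growth of young seedlings. Of the measured members 8 of 11 belonged to group I, 10 of 15 to group II, 2 of 2 to group IIIA and 4 of 5 to group IIIB.

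The catalytic centre of the family is a pattern glutamate-x-aspartate-x-glutamate, in which both glutamates are needed for cleavage. It was found in 32 of the 33 proteins encoded by the RefSeq annotation of build TAIR10.1. XTH11 lacked it. At the place to which the other 32 members aligned, XTH11 carried the substitutions D109C and E111Q, with the residue of the other members first and positions counted from the first methionine of XTH11. The residue before the last glutamate was isoleucine in 5 members, all of group III (XTH29 to XTH33), and phenylalanine in the other 28. The 33 coding bases around this site are shown for 4 members whose levels are described further on. Capitals mark the codons of the glutamate, aspartate and glutamate of the pattern, or of the residues in their place. They lie on the plus strand of chr3:18007734-18007766 (XTH11) and of chr2:6245358-6245390 (XTH10), and on the minus strand of chr5:23305797-23305829 (XTH25) and of chr3:16447882-16447914 (XTH31).
XTH11: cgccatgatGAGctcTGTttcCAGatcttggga
XTH10: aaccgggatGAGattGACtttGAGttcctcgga
XTH25: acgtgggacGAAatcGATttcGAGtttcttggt
XTH31: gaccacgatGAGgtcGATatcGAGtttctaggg
The last 2 capital codons read TGT and CAG in XTH11, where the other 3 members have an aspartate codon and a glutamate codon. The XTH11 transcript was among those most raised by ABA.

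Between members, identity of the aligned coding sequences had a median of 62.4% over 528 pairs, with 57.5% at the lowest and 92.2% at the highest, the pair XTH17 and XTH18. XTH18 and XTH19 shared 89.2%, XTH15 and XTH16 81.7%, and XTH22 and XTH23 80.9%. How reads that match several members were assigned is not given in the sources used here, so values of these close pairs are uncertain. XTH15 also overlaps AT4G14120 on the opposite strand, and whether counting used the strand is not given there either.

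A few members made up most of the XTH transcript pool. XTH15, XTH4 and XTH24 averaged 1395, 1150 and 664 RPKM over all 28 libraries and together held 61.8% to 83.4% of the summed RPKM of the 24 members. XTH30 followed at 265 RPKM, and 6 members averaged above 100 RPKM in all. At the other end 6 members averaged below 10 RPKM, among them XTH25 at 6.49, XTH11 at 4.52 and XTH10 at 1.63 RPKM.

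The summed RPKM of the family at 1 h was 3943 and 2940 in ABA seedlings, against 3286 and 3179 in mock seedlings. At 60 h it was 4392 and 6247 with ABA, against 4602 and 5410 in mock. The groups overlapped at both times. The members that made up the sum changed places over the series.

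XTH4, whose product has endotransglucosylase activity and has been studied in xylem, held 51.1% and 46.9% of the summed RPKM with ABA at 1 h, against 47.3% and 41.9% in mock. By 60 h its share was 11.6% and 5.80% with ABA, against 18.2% and 15.3% in mock. XTH15 held 33.9% and 41.2% with ABA at 60 h, against 26.7% and 31.6% in mock. The ABA libraries thus stood below both mock libraries for the share of XTH4 and above both for the share of XTH15 at the last time.

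**Figure D1:**
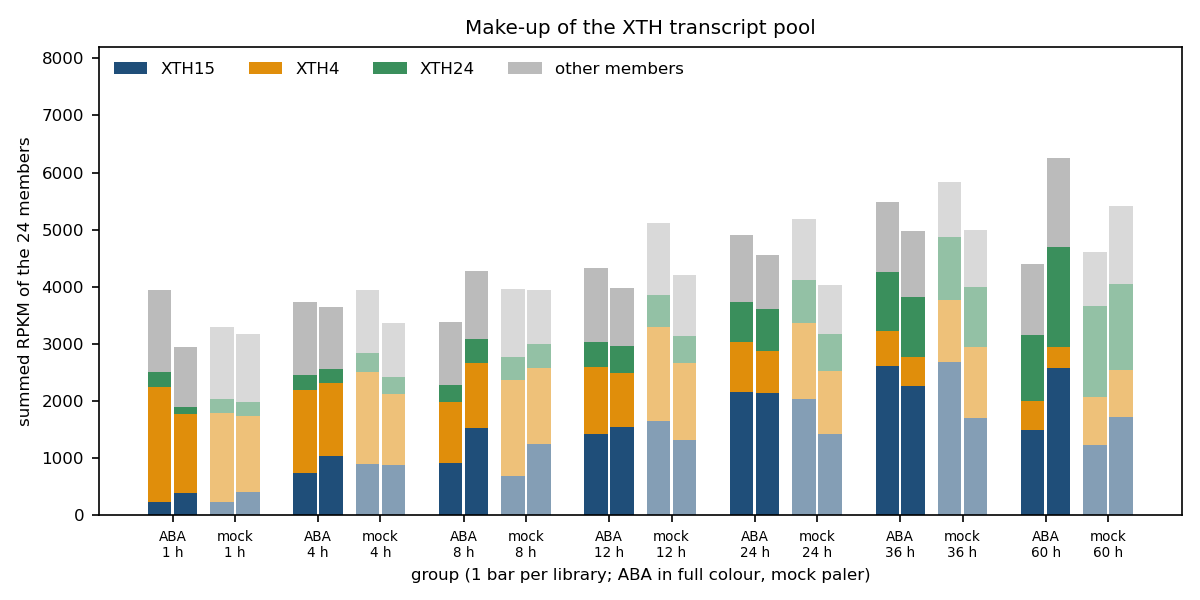
Summed RPKM of the 24 measured XTH members in each library (1 bar per library), split into XTH15, XTH4, XTH24 and the other members, with ABA libraries left of mock libraries at each time. The XTH4 part is smaller and the XTH15 and XTH24 parts are larger at 60 h than at 1 h. The group mean of XTH15 is highest at 36 h, at 2436 RPKM with ABA and 2195 in mock. At 60 h it is 2030 RPKM with ABA and 1468 in mock. At 60 h the XTH4 part is 11.6% and 5.80% of the bar with ABA, against 18.2% and 15.3% in mock.

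Most members changed between 1 h and 60 h under either treatment. Levels were compared as log2(RPKM + 1) with limma in one model of all 14 groups. A gene counts as called where its p, adjusted over all 18310 genes by the Benjamini-Hochberg procedure, was under 0.05. Between 60 h and 1 h in mock seedlings 18 of 24 members were called, 75.0%, 7 higher and 11 lower, where 61.4% of all genes were called, 30.3% higher and 31.1% lower. In ABA seedlings 17 of 24 were called between the same times, 9 higher and 8 lower, where 63.9% of all genes were called, 31.9% higher and 32.0% lower. The F test for a change of mock seedlings over the 7 times called 18 members as well, where 55.0% of all genes were called. The share of members called was thus above that of all genes in each comparison, at 70.8% of members for ABA seedlings. The difference of shares was not tested. The median absolute log2 difference was larger too. It was 1.61 for members against 0.65 for all genes in ABA seedlings, and 1.15 against 0.60 in mock.

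XTH24, also known as MERI5, rose with age in both treatments, by 3.05 ± 0.27 (log2 difference ± SE) with ABA and by 2.64 ± 0.27 in mock (limma adjusted p = 5.33e-08 and 3.25e-07). Its values were 1161 and 1760 RPKM at 60 h with ABA, against 261 and 114 RPKM at 1 h. In mock seedlings they were 1595 and 1507 RPKM at 60 h, against 243 and 252 RPKM at 1 h. XTH24 was not called between ABA and mock at any time.

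XTH15 (AT4G14130, chr4:8137020-8138392, minus strand) was the most abundant member. With ABA it had 234 and 390 RPKM at 1 h, 735 and 1035 at 4 h, 901 and 1526 at 8 h, 1415 and 1539 at 12 h, 2147 and 2143 at 24 h, 2616 and 2256 at 36 h, then 1488 and 2572 at 60 h. In mock it had 233 and 393 RPKM at 1 h, 891 and 872 at 4 h, 688 and 1248 at 8 h, 1654 and 1309 at 12 h, 2037 and 1411 at 24 h, 2690 and 1700 at 36 h, then 1227 and 1709 at 60 h. Its level thus climbed in both treatments up to 36 h, and the 2 treatments overlapped at every time except 24 h, where both ABA libraries were the higher. The gain from 1 h to 60 h was 2.69 ± 0.38 with ABA and 2.26 ± 0.38 in mock (log2, limma adjusted p = 8.90e-06 and 6.23e-05), and the ABA effect averaged over the 7 times was 0.18 ± 0.14 (adjusted p = 0.340).

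Other members went down with age. XTH32 of group IIIA fell, with log2 differences of -4.47 with ABA and -4.43 in mock (SE 0.42 each, limma adjusted p = 1.01e-07 and 1.45e-07), ending at 1.29 and 0.189 RPKM with ABA and at 1.09 and 0.843 RPKM in mock. The lowest of these values rested on 5 reads. XTH9, studied in the shoot apex and in xylem, fell too, with -2.46 with ABA and -3.39 in mock (SE 0.28 each, limma adjusted p = 6.83e-07 and 2.73e-08). XTH19, a root-expressed member of group II, had -1.74 with ABA and -1.77 in mock (SE 0.33 each, limma adjusted p = 0.000169 and 0.000154). XTH17 had -0.85 with ABA and -1.20 in mock. It was called with the replicate block (limma adjusted p = 0.0175 and 0.00188) and not without it (adjusted p = 0.181 and 0.0650). The pairing of same-numbered libraries was checked within each time only. It was not checked between 1 h and 60 h, so these blocked calls are less certain.

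**Figure D2:**
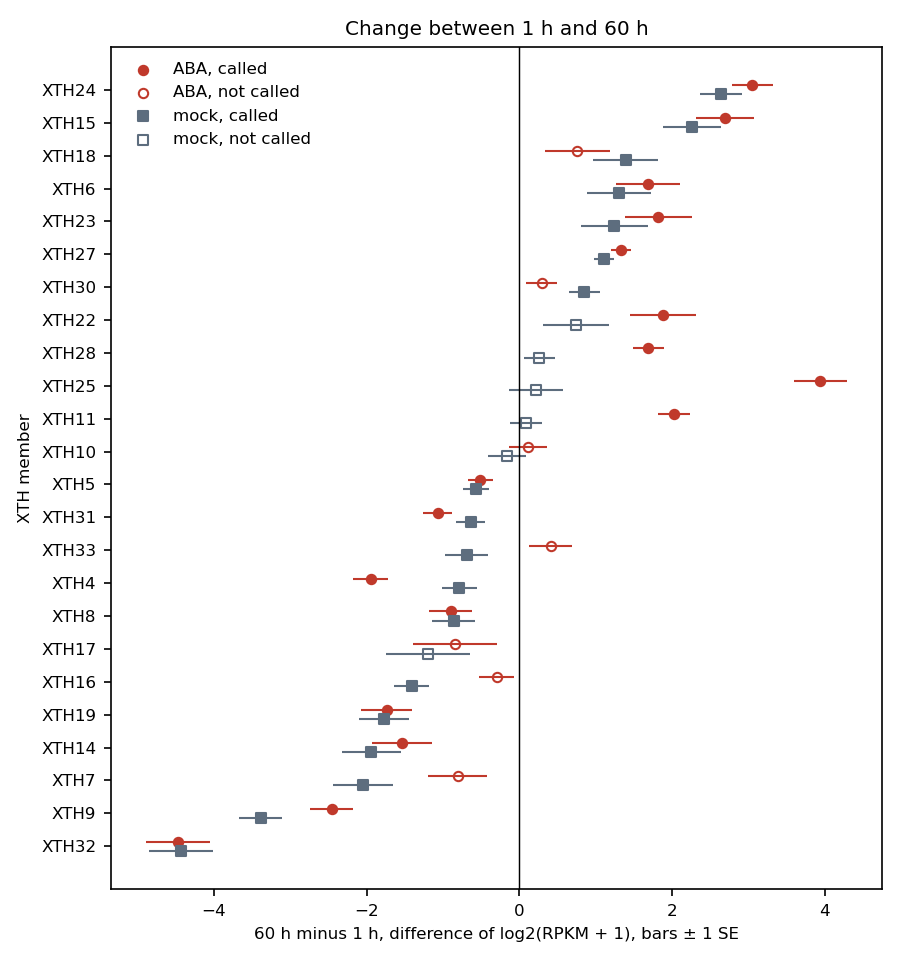
Log2 difference between 60 h and 1 h (x axis, bars ± 1 SE) for each measured member (y axis), ABA as circles above mock as squares, filled where called. XTH25, XTH11, XTH28 and XTH22 are called with ABA (3.94, 2.03, 1.69 and 1.88) and not in mock (0.22, 0.09, 0.26 and 0.74), and XTH32 is lowest in both.

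A set of 4 members gained with age in ABA seedlings and were not called in mock, namely XTH25, XTH11, XTH28 and XTH22. A call under one treatment and not under the other does not test their difference. The difference of the gains from 1 h to 60 h was not tested by itself. A related contrast, of the ABA effects at 60 h and 4 h, starts from 4 h and not from 1 h. That contrast called 3 of 24 members (12.5%), all with a larger ABA effect at 60 h, where 2.46% of all genes were called, 0.732% in that direction and 1.73% in the other. The 3 were XTH25, XTH11 and XTH28, and the moderated F test for any ABA effect that differs between times called the same 3, where 4.17% of all genes were called. With the replicate number as a block, which pairs the libraries as described under processing, the contrast called 9 members (11.5% of all genes), adding XTH4, XTH7, XTH9, XTH16, XTH30 and XTH33. The blocked F test called 11 (14.2% of all genes), adding XTH4, XTH5, XTH7, XTH9, XTH16, XTH18, XTH22 and XTH33. With any single library left out the contrast called 1 to 4 members.

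More members were called between ABA and mock at the later times. No member was called at 1 h by limma, none at an unadjusted p under 0.05, none with voom weights on the recovered reads and none in the authors' deposited table, while limma called 2.09% of all genes, 1.70% higher and 0.393% lower. By 4 h 1 member was called higher and 1 lower (8.33% of members), against 12.7% of all genes, 8.98% higher and 3.74% lower. The 8 h comparison called 3 members higher and 1 lower (16.7%), against 11.5% of all genes, 7.92% higher and 3.57% lower. The 12 h comparison also called 3 higher and 1 lower, against 12.5% of all genes, 8.37% higher and 4.09% lower. After 24 h 5 were higher and 1 lower (25.0%), against 10.5% of all genes, 6.64% higher and 3.88% lower. After 36 h 7 were higher and 1 lower (33.3%), against 13.8% of all genes, 8.24% higher and 5.59% lower. After 60 h 6 were higher and 2 lower, against 13.6% of all genes, 7.84% higher and 5.73% lower. In this fit, without the replicate block, the share of members was near that of all genes up to 12 h. This rests on 2, 4 and 4 members at 4, 8 and 12 h. From 24 h on the share of members was the larger. The difference of shares was not tested at any time.

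The replicate block raised these counts to 6, 12, 12, 15, 14 and 12 members at 4, 8, 12, 24, 36 and 60 h, and it raised the share of all genes called to 27.3%, 25.0%, 28.4%, 24.4%, 29.7% and 28.6%. It called no member at 1 h, and 4.92% of all genes. In the fit without the block the 32 calls at single times fell on 10 members, with 25 calls higher and 7 lower with ABA. In each of the 32 both ABA libraries lay on one side of both mock libraries. A call selects for such a separation, and its share over all genes is not given, so it adds no separate support. Of the 32 calls, 13 held in all 28 fits that leave out a library. The FDR in the authors' deposited table was under 0.05 in 35 comparisons of a member at a time. Of these 35, 29 were among the 32 calls, 90.6% of the calls here and 82.9% of those in the authors' deposited table. Over all genes of the authors' deposited table, 2.68% at 1 h and 12.7%, 11.4%, 12.5%, 10.7%, 13.6% and 13.3% at the later times had such an FDR.

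Averaged over the 7 times, 16 of 24 members were called (66.7%), 10 higher and 6 lower with ABA, where 39.1% of all genes were called, 21.0% higher and 18.1% lower. Among all called genes, 53.7% were higher with ABA, and 40.2% under quantile normalization, which called 10 members higher and 9 lower. The median of the members was 0.20 (log2), against -0.01 for all genes, and the median absolute difference was 0.46, against 0.14. Higher were XTH7, XTH11, XTH14, XTH16, XTH17, XTH22, XTH23, XTH25, XTH27 and XTH28. Lower were XTH4, XTH18, XTH30, XTH31, XTH32 and XTH33. By group, 2 members of group I, 6 of group II and 2 of group IIIB were higher, and 1 of group I, 1 of group II, both of group IIIA and 2 of group IIIB were lower.

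**Figure D3:**
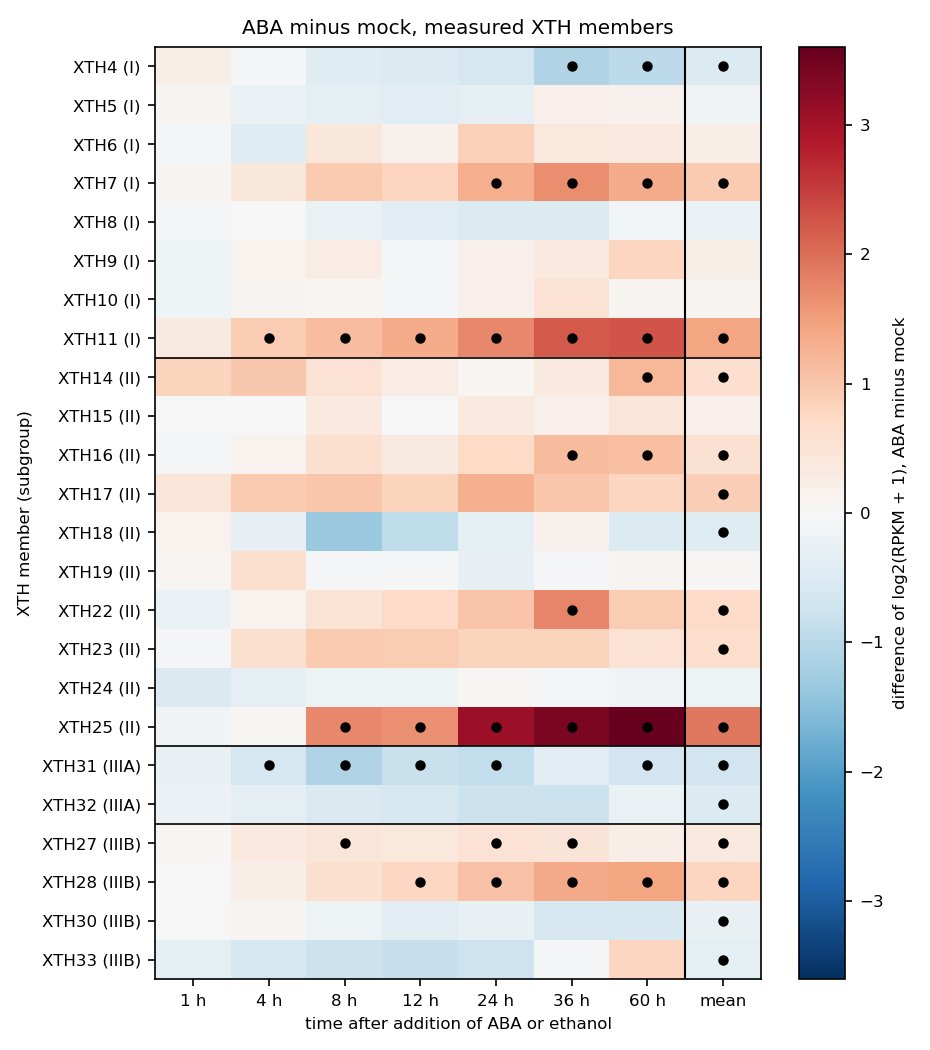
ABA minus mock difference of log2(RPKM + 1) for each measured member (rows, by group) at each time and averaged over the 7 times (columns), red where higher with ABA and blue where lower, with a dot where limma's adjusted p was under 0.05. The 1 h column has no dot, the 36 h and 60 h columns have 8 each, and XTH25 and XTH11 are the darkest red rows.

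In group I, XTH11 (AT3G48580, chr3:18007098-18008535, plus strand) showed the earliest rise. ABA seedlings had 2.94 and 2.58 RPKM at 1 h, 4.25 and 3.16 at 4 h, 3.96 and 5.64 at 8 h, 7.02 and 6.16 at 12 h, 7.08 and 8.41 at 24 h, 11.8 and 9.47 at 36 h, then 14.6 and 14.2 at 60 h. Mock seedlings had 2.02 and 1.97 RPKM at 1 h, 1.38 and 1.62 at 4 h, 2.33 and 1.12 at 8 h, 2.42 and 1.65 at 12 h, 2.06 and 1.29 at 24 h, 1.64 and 1.40 at 36 h, then 1.81 and 2.60 at 60 h. Both ABA libraries were above both mock libraries at all 7 times, and mock seedlings stayed at a low level with no call over time (limma F test, adjusted p = 0.633). XTH11 was called from 4 h, at 0.91 ± 0.21 (adjusted p = 0.00642), to 60 h, at 2.27 ± 0.21 (adjusted p = 4.18e-07). The 4 h call was lost without replicate 1 of ABA (adjusted p = 0.112) or replicate 1 of mock (adjusted p = 0.0644), and the other 5 calls held in all 28 such fits. Averaged over the times the difference was 1.41 ± 0.08 (adjusted p = 5.56e-11).

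XTH7 (AT4G37800, chr4:17775370-17777445, minus strand) was the other member of group I raised by ABA. With ABA it had 22.3 and 37.4 RPKM at 1 h, 54.3 and 56.8 at 4 h, 51.6 and 48.8 at 8 h, 40.4 and 30.6 at 12 h, 13.6 and 12.8 at 24 h, 18.4 and 25.2 at 36 h, then 13.1 and 19.7 at 60 h. The mock libraries held 22.3 and 32.8 RPKM at 1 h, 43.7 and 38.7 at 4 h, 29.2 and 22.9 at 8 h, 24.7 and 16.2 at 12 h, 5.89 and 3.79 at 24 h, 4.25 and 8.57 at 36 h, then 2.98 and 10.5 at 60 h. The group mean was highest at 4 h in both treatments and was lower from 24 h on than at 1 h, and from 4 h on both ABA libraries were the higher. The largest difference was 1.67 ± 0.39 at 36 h (limma adjusted p = 0.00639). That call was lost without replicate 2 of ABA (adjusted p = 0.0771) or replicate 1 of mock (adjusted p = 0.113). The calls at 24 h and 60 h (1.30 and 1.34) were lost in 10 and 2 of the 28 fits that leave out a library, among them any of the 4 libraries of 24 h (adjusted p up to 0.258), and replicate 2 of ABA or replicate 1 of mock at 60 h (adjusted p = 0.199 and 0.466). The remaining 6 fits at 24 h left out a library of 4 h or 8 h. The replicate block added calls of XTH7 at 8 and 12 h (0.93 and 0.78, adjusted p = 0.00364 and 0.00945). The average over the times, 0.93 ± 0.15 (adjusted p = 5.34e-05), held in all 28 fits.

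XTH4 (AT2G06850, chr2:2763449-2765743, plus strand) of the same group went the other way. The ABA libraries held 2014 and 1379 RPKM at 1 h, 1453 and 1284 at 4 h, 1073 and 1133 at 8 h, 1180 and 943 at 12 h, 878 and 729 at 24 h, 599 and 505 at 36 h, then 511 and 362 at 60 h. Without ABA it had 1555 and 1331 RPKM at 1 h, 1606 and 1255 at 4 h, 1678 and 1333 at 8 h, 1636 and 1362 at 12 h, 1330 and 1101 at 24 h, 1075 and 1244 at 36 h, then 838 and 826 at 60 h. From 8 h on both ABA libraries lay below both mock libraries. XTH4 fell by 1.07 at 36 h and by 0.95 at 60 h (log2, SE 0.23, limma adjusted p = 0.00346 and 0.00893). The 36 h call was lost without replicate 2 of ABA (adjusted p = 0.0502), and the 60 h call without replicate 2 of ABA (adjusted p = 0.128) or replicate 1 of mock (adjusted p = 0.0552). The replicate block added a call at 24 h (-0.60, adjusted p = 0.0268). Of the remaining measured members of group I, XTH5, XTH6, XTH8, XTH9 and XTH10 were called neither at a single time nor in the average. The replicate block called 4 of these 5 at single times. XTH5 was lower at 8, 12 and 24 h (-0.33, -0.40 and -0.31, blocked adjusted p = 0.0262, 0.0101 and 0.0349). XTH8 was lower at 24 and 36 h (-0.48 and -0.49, blocked adjusted p = 0.0455 and 0.0375). XTH10 was higher at 36 h (0.51, blocked adjusted p = 0.0384). XTH9 was higher at 60 h (0.77, blocked adjusted p = 0.000832), where it had 11.3 and 22.0 RPKM with ABA and 6.93 and 11.3 RPKM in mock. With the block XTH5, XTH8 and XTH9 were also called in the average (-0.12, -0.25 and 0.21, where the block called 58.0% of all genes).

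In group II, XTH25 (AT5G57550, chr5:23304782-23306440, minus strand) had the largest response of the 24 measured members. With ABA it had 1.87 and 0.728 RPKM at 1 h, 1.81 and 0.750 at 4 h, 2.77 and 5.15 at 8 h, 4.54 and 5.80 at 12 h, 14.1 and 14.6 at 24 h, 18.1 and 27.4 at 36 h, then 27.8 and 39.7 at 60 h. The mock values were 1.37 and 1.51 RPKM at 1 h, 0.745 and 1.65 at 4 h, 0.580 and 0.356 at 8 h, 1.66 and 0.456 at 12 h, 1.22 and 0.503 at 24 h, 1.63 and 0.866 at 36 h, then 1.45 and 2.31 at 60 h. The groups overlapped at 1 and 4 h, and both ABA libraries were above both mock libraries at all 5 later times, with mock seedlings near the bottom of the family throughout. The lowest mock value rested on 8 reads and the highest on 49 reads. Since the table was filtered on CPM, XTH25 may have entered it only through its ABA libraries. Its rank among the responses therefore holds for the measured members only.

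The log2 difference of XTH25 was 1.72 ± 0.35 at 8 h, 1.64 at 12 h, 3.07 at 24 h, 3.40 at 36 h and 3.59 at 60 h, with one SE for all (limma adjusted p = 0.00219, 0.00290, 6.44e-06, 1.30e-06 and 6.84e-07). Since 1 was added before the logarithm, these understate the ratio of mean RPKM, which was 18.0 at 60 h (33.8 with ABA, 1.88 in mock). Within the family XTH25 ranked 14 of 24 by mean RPKM at 60 h with ABA, against 21 in mock. The 8 h call was lost without replicate 2 of ABA (adjusted p = 0.0562) and the 12 h call without replicate 2 of mock (adjusted p = 0.0805), while the calls from 24 h on held in all 28 such fits. The ABA effect at 60 h exceeded that at 4 h by 3.55 ± 0.49 (adjusted p = 0.000323).

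XTH22 (AT5G57560, chr5:23307006-23308680, minus strand), first known as TCH4 for its induction by touch, is the chromosomal neighbour of XTH25. ABA seedlings had 98.3 and 61.2 RPKM at 1 h, 45.3 and 51.0 at 4 h, 54.3 and 59.4 at 8 h, 61.7 and 74.8 at 12 h, 97.3 and 112 at 24 h, 130 and 205 at 36 h, then 187 and 445 at 60 h. Its mock libraries had 80.8 and 104 RPKM at 1 h, 43.0 and 44.9 at 4 h, 44.6 and 36.0 at 8 h, 45.4 and 38.9 at 12 h, 56.0 and 46.0 at 24 h, 46.0 and 48.0 at 36 h, then 79.8 and 296 at 60 h. Both ABA libraries were the higher from 4 h to 36 h, and at 60 h the groups overlapped, with replicate 2 far above replicate 1 in both treatments. The difference was called at 36 h, at 1.77 ± 0.43 (limma adjusted p = 0.00836), and in the average, at 0.68 ± 0.16 (adjusted p = 0.00274). The 36 h call was lost without replicate 2 of ABA (adjusted p = 0.112) or replicate 1 of mock (adjusted p = 0.0515). The replicate block added calls at 24 and 60 h (1.03 and 0.90, adjusted p = 0.00822 and 0.0136).

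XTH16 (AT3G23730, chr3:8550037-8551403, plus strand), the relative closest to XTH15, was raised by ABA late in the series. It had 152 and 131 RPKM with ABA at 1 h, 92.0 and 84.0 at 4 h, 92.1 and 86.5 at 8 h, 72.3 and 58.3 at 12 h, 64.5 and 49.6 at 24 h, 102 and 93.0 at 36 h, then 99.4 and 133 at 60 h. In mock it had 141 and 152 RPKM at 1 h, 83.0 and 77.4 at 4 h, 70.7 and 50.5 at 8 h, 61.0 and 43.8 at 12 h, 42.7 and 26.8 at 24 h, 43.3 and 43.8 at 36 h, then 45.4 and 64.9 at 60 h. The member declined up to 24 h in both treatments. At 36 and 60 h both libraries of each treatment were above both libraries of that treatment at 24 h. The group means at 24, 36 and 60 h were 57.1, 97.3 and 116 RPKM with ABA. In mock they were 34.8, 43.5 and 55.2 RPKM. ABA raised it by 1.14 ± 0.23 at 36 h, in all 28 fits with a library left out, and by 1.07 ± 0.23 at 60 h (limma adjusted p = 0.00166 and 0.00304). The 60 h call was lost without replicate 2 of ABA (adjusted p = 0.0545) or replicate 1 of mock (adjusted p = 0.0693). Under the replicate block XTH16 was also called at 8, 12 and 24 h (0.57, 0.32 and 0.72, adjusted p = 0.00230, 0.0458 and 0.000494). XTH15 was not called at any time in either fit.

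XTH14 (AT4G25820, chr4:13130291-13131860, plus strand), an endotransglucosylase known from roots, was a weakly expressed member. With ABA it had 8.96 and 7.58 RPKM at 1 h, 10.8 and 5.70 at 4 h, 6.57 and 6.30 at 8 h, 9.38 and 2.59 at 12 h, 1.63 and 1.76 at 24 h, 2.05 and 1.47 at 36 h, then 3.13 and 1.44 at 60 h. Mock seedlings had 4.72 and 3.92 RPKM at 1 h, 3.47 and 3.63 at 4 h, 6.11 and 2.81 at 8 h, 4.56 and 3.54 at 12 h, 1.89 and 1.24 at 24 h, 0.845 and 1.50 at 36 h, then 0.509 and 0.275 at 60 h. The groups did not overlap at 1, 4, 8 and 60 h and overlapped at 12, 24 and 36 h. The call at 60 h (1.20 ± 0.39, limma adjusted p = 0.0471) was lost in 21 of the 28 fits that leave out a library (adjusted p up to 0.353), among them replicate 1 of ABA and either mock library of that time, and the lowest mock value rested on 6 reads. The replicate block added a call at 4 h (0.97, adjusted p = 0.0343, against 0.126 without it). The average over the times was 0.60 ± 0.15 (adjusted p = 0.00290) and held in all 28.

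XTH17 and XTH23 were called in the average and at no single time. XTH17, a root-expressed relative of XTH18, was higher by 0.89 ± 0.21 (limma adjusted p = 0.00196), with 53.3 to 258 RPKM in ABA libraries and 37.0 to 147 RPKM in mock. Its 2 replicates differed widely, as at 24 h with 210 and 91.5 RPKM with ABA and 85.7 and 37.0 RPKM in mock. With the replicate block it was called at 4, 8, 24 and 36 h (0.95, 0.99, 1.29 and 0.99, adjusted p = 0.0353, 0.0313, 0.00851 and 0.0269). XTH23 was higher by 0.64 ± 0.17 (adjusted p = 0.00523) and with the block was called at 8, 12, 24 and 36 h (0.93, 0.90, 0.80 and 0.81, adjusted p = 0.00523, 0.00598, 0.0127 and 0.0102).

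XTH18, which shares 92.2% of its aligned coding sequence with XTH17, was lower by 0.44 on average (SE 0.16, limma adjusted p = 0.0397). This call was lost in 17 of the 28 fits that leave out a library, with adjusted p of 0.0513 to 0.0763. At 8 h it had 12.9 and 17.4 RPKM with ABA, against 46.1 and 34.0 RPKM in mock, a difference of -1.35 ± 0.43 (adjusted p = 0.0530, and 0.000467 with the replicate block). At 12 h the difference was -0.92 (adjusted p = 0.206, and 0.00556 with the block). XTH19 and XTH24 were called neither at a single time nor in the average.

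In group IIIA both measured members were lower with ABA on average, XTH31 by 0.68 (SE 0.07) and XTH32 by 0.49 (SE 0.16), with limma adjusted p = 2.54e-07 and 0.0197. XTH31 (AT3G44990, chr3:16446935-16448844, minus strand), known for hydrolase activity, had 73.9 and 67.2 RPKM with ABA at 1 h, 64.4 and 69.0 at 4 h, 59.7 and 39.8 at 8 h, 52.0 and 64.9 at 12 h, 45.2 and 49.8 at 24 h, 51.6 and 41.6 at 36 h, then 33.5 and 32.8 at 60 h. The mock libraries held 84.6 and 86.7 RPKM at 1 h, 93.8 and 110 at 4 h, 111 and 96.4 at 8 h, 101 and 104 at 12 h, 80.0 and 100 at 24 h, 55.0 and 71.2 at 36 h, then 48.1 and 62.0 at 60 h. Both ABA libraries lay below both mock libraries at all 7 times.

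XTH31 was called at 4, 8, 12, 24 and 60 h, with differences of -0.60, -1.07, -0.81, -0.90 and -0.70 (SE 0.19, limma adjusted p = 0.0432, 0.000583, 0.00599, 0.00295 and 0.0155). The 8 h call held in all 28 fits with a library left out. The 4 h call was lost in 12 of them (adjusted p up to 0.308), all 4 libraries of that time included. The 12 h call was lost without replicate 1 of ABA or replicate 2 of mock (adjusted p = 0.0870 and 0.0519), the 24 h call without replicate 2 of mock (adjusted p = 0.0567), and the 60 h call without either ABA library (adjusted p = 0.0640 and 0.0751) or replicate 2 of mock (adjusted p = 0.188). XTH32 was called at no single time without the block, and at 24 and 36 h with it (-0.76 each, adjusted p = 0.0349 and 0.0306).

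In group IIIB the 4 measured members split evenly. XTH28 (AT1G14720, chr1:5066525-5068677, minus strand), studied in stamen growth, had 19.1 and 15.5 RPKM with ABA at 1 h, 26.4 and 22.0 at 4 h, 29.8 and 29.2 at 8 h, 33.8 and 28.8 at 12 h, 41.7 and 32.8 at 24 h, 54.5 and 45.3 at 36 h, then 72.8 and 46.1 at 60 h. Without ABA it had 17.4 and 17.6 RPKM at 1 h, 21.9 and 18.4 at 4 h, 21.9 and 17.1 at 8 h, 18.8 and 17.8 at 12 h, 19.9 and 15.0 at 24 h, 20.2 and 17.5 at 36 h, then 22.7 and 19.5 at 60 h. Both ABA libraries were above both mock libraries at every time from 4 h, and mock seedlings kept a level near 20 RPKM. XTH28 was called at 12, 24, 36 and 60 h, with differences of 0.74, 1.05, 1.35 and 1.42 (SE 0.20, limma adjusted p = 0.0169, 0.00129, 7.65e-05 and 4.60e-05). The 12 h call was lost without replicate 1 of ABA (adjusted p = 0.132) or either mock library (adjusted p = 0.0667 and 0.112), and the later calls held in all 28 fits. With the replicate block it was also called at 8 h (0.58, adjusted p = 0.00229).

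XTH27, its closest relative and a gene studied in tracheary elements, showed a smaller rise of 0.34 ± 0.05 on average (limma adjusted p = 2.04e-05). It was called at 8, 24 and 36 h (0.44, 0.51 and 0.45, adjusted p = 0.0389, 0.0156 and 0.0285), and each of these calls was lost without replicate 2 of ABA or either mock library of the same time (adjusted p = 0.0583 to 0.425). The 8 h call was also lost without either mock library of 1 h. With the replicate block it was called at 4 and 12 h as well (0.34 and 0.38, adjusted p = 0.0215 and 0.0112).

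XTH30 and XTH33 were lower on average, by 0.27 (SE 0.08) and 0.36 (SE 0.10), with limma adjusted p = 0.00753 and 0.00988. The replicate block called XTH30 lower at 12, 36 and 60 h (-0.39, -0.60 and -0.57, adjusted p = 0.0473, 0.00480 and 0.00715), where the fit without it called neither XTH30 nor XTH33 at a single time. XTH33, which carries a membrane anchor, changed sides over the series. At 12 h it had 10.1 and 7.88 RPKM with ABA, against 18.5 and 15.3 RPKM in mock. At 60 h it had 12.2 and 22.1 RPKM with ABA, against 8.07 and 10.4 RPKM in mock. The ABA libraries were thus both lower at 12 h and both higher at 60 h. Neither difference was called without the replicate block (-0.84 and 0.78, adjusted p = 0.0546 and 0.0719), and both were with it (adjusted p = 0.00828 and 0.0114). The block also called XTH33 lower at 4, 8 and 24 h (-0.62, -0.76 and -0.75, adjusted p = 0.0392, 0.0158 and 0.0176). The difference between the ABA effects at 60 h and 4 h was 1.40 ± 0.39 (adjusted p = 0.0703, and 0.00913 with the block).

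**Figure D4:**
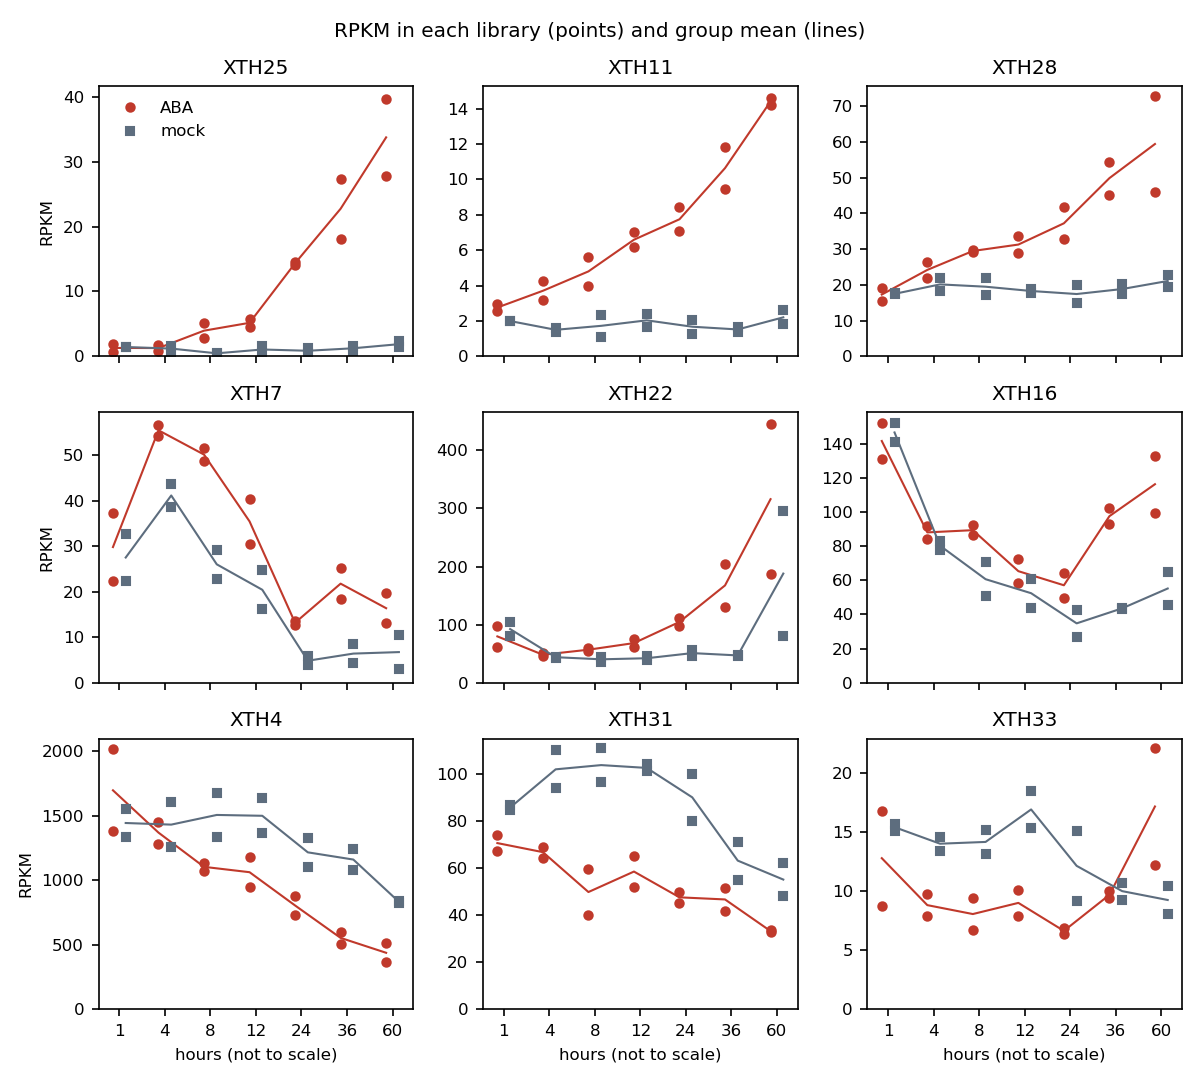
RPKM of 9 members in every library (points) and group mean (lines) against time after treatment, ABA as circles left of mock as squares, each panel with its own axis from 0. XTH25, XTH11 and XTH28 climb with ABA and stay level in mock (33.8, 14.4 and 59.5 RPKM with ABA at 60 h, against 1.88, 2.21 and 21.1 in mock), XTH4 and XTH31 lie lower with ABA, and the XTH33 groups change sides.

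Several members lie side by side in the genome, and 4 neighbouring pairs were measured. The ABA effect of one neighbour minus that of the other was taken within the 14 matched pairs of libraries (same time and replicate number) and tested by an exact two-sided sign-flip permutation test, adjusted over the 4 pairs by the Benjamini-Hochberg procedure. XTH25 and XTH22, 565 bases apart on chromosome 5, differed most. XTH25 had a mean effect of 1.90 and XTH22 of 0.68, a difference of 1.22 ± 1.03 (SD over 14 pairs) that was positive in 12 of 14 (exact p = 0.0012, adjusted p = 0.0049). XTH18 and XTH19, 1500 bases apart on chromosome 4, differed by -0.49 ± 0.67, negative in 9 of 14 (exact p = 0.021, adjusted p = 0.041), and leaving out a library of 4, 8 or 12 h, of replicate 1 at 24 h or of replicate 1 at 60 h brought the adjusted p above 0.05, to 0.083 at most.

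XTH24 and XTH18, 5161 bases apart, differed by 0.25 ± 0.65 (9 of 14 positive, exact p = 0.16, adjusted p = 0.22). XTH23 and XTH14, 363 bases apart, differed by 0.04 ± 0.77 (8 of 14 positive, exact p = 0.85, adjusted p = 0.85). Neither difference passed the test. The 14 pairs pool 7 times, so their spread includes changes over time.

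XTH25 and XTH22 are transcribed from the minus strand and share 73.0% of their aligned coding sequence. Their promoters are printed because the neighbours differ in the size of the ABA effect. The 250 bases before the annotated start of each gene were read from TAIR10.1 on the gene's own strand, at chr5:23306441-23306690 for XTH25 and chr5:23308681-23308930 for XTH22. Capitals mark ACGTG, the core of the ABA-response element, on either strand.
XTH25: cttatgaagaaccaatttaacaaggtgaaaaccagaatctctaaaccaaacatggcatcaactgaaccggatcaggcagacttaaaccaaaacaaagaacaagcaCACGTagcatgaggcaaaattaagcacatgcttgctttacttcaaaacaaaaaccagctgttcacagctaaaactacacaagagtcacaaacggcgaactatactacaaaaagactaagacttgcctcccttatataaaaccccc
XTH22: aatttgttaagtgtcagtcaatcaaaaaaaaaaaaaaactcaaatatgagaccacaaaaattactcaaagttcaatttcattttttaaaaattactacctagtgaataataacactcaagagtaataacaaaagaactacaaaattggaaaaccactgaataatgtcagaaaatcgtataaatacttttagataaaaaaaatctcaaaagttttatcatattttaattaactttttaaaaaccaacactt
The XTH25 window holds ACGTG once, on the opposite strand, and the XTH22 window does not hold it. Over the 24 measured members ACGTG was present in 3 windows (12.5%), those of XTH6, XTH14 and XTH25, against 24.1% of 18220 promoters of the table. CACGTG, the G-box, which contains ACGTG, was in none of the 24, against 7.80% of all promoters. CACATG, an E-box bound by phytochrome-interacting factors, was in 4 (16.7%, XTH17, XTH18, XTH25 and XTH33), against 11.3%, and TGTCTC, the auxin-response element, in 1 (4.17%, XTH6), against 10.5%. Each motif was searched on both strands. XTH11, called from 4 h on, holds none of the 4 in its window. A match describes these letters only.

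Genes that build and trim xyloglucan were examined from a list of 22, of which 21 were in the table. Averaged over the times 10 were called (47.6%, against 39.1% of all genes), 6 higher and 4 lower with ABA, and the median absolute difference was 0.13 for the list and 0.14 for all genes, against 0.46 for the XTH members. XLT2, a galactosyltransferase of the side chains, rose most, by 1.19 ± 0.12 (limma adjusted p = 2.15e-07), with 7.15, 15.7 and 24.4 RPKM as the lowest, median and highest ABA library and 3.38, 5.80 and 9.94 RPKM as those of mock. The ABA and mock ranges of XLT2 overlapped across times.

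Also higher were TBL27 (0.44) and TBL22 (0.32), which acetylate xyloglucan side chains. TBL22 was near 0, with a mean of 0.621 RPKM over all libraries and a range of 0.0737 to 1.63 RPKM. Its group means at 60 h were 0.393 RPKM with ABA and 0.385 RPKM in mock. FUT1 (0.14), the fucosyltransferase, BGLC3 (0.27), a beta-glucosidase, and CSLC12 (0.13), of the backbone synthase family, were higher too. Lower were 4 hydrolases that trim xyloglucan fragments, the alpha-xylosidase XYL1 (-0.20), the beta-galactosidase BGAL10 (-0.39), the fucosidase FUC95A (-0.26) and the beta-glucosidase BGLC1 (-0.26). The other 11 measured genes of the list, among them the xylosyltransferases XXT1 to XXT5, were not called. CSLC12 lost its call in 17 of the 28 fits that leave out a library, and each of the other 9 kept it. Under the median-ratio and the quantile scaling the split was 5 higher and 5 lower.

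Whole seedlings mix tissues, and in such samples fewer cells of a type and less RNA per cell cannot be told apart. Markers of the tissues were therefore measured beside the family. All 5 xylem markers (XCP1, XCP2, CESA4, CESA7 and CESA8) were called higher with ABA on average, and their summed level at 4 h was 222 and 160 RPKM with ABA, against 124 and 103 RPKM in mock. At 60 h it was 124 and 70.7 RPKM with ABA, against 102 and 69.7 RPKM in mock, and over the series it ranged over 70.7 to 231 RPKM with ABA and 69.7 to 143 RPKM in mock. Of 4 markers of the shoot and cotyledon epidermis 2 (CER6 and FDH) were called higher, with sums of 887 to 2213 RPKM with ABA and 709 to 1619 RPKM in mock.

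Of 5 root endodermis markers (CASP1 to CASP5) 1, CASP4, was called lower, and their sum ranged over 273 to 1059 RPKM with ABA, with a median of 607, and over 401 to 996 RPKM in mock, with a median of 583. At 4 h it was 1059 and 670 RPKM with ABA, against 635 and 486 RPKM in mock, and at 60 h it was 419 and 273 RPKM with ABA, against 823 and 570 RPKM in mock. Of 3 markers of the stomatal lineage 1, SPCH, was called lower. Root hair markers were near 0, with 3 of 5 in the table and sums of 0.0476 to 11.6 RPKM with ABA and 0.357 to 8.18 RPKM in mock, and 7 of their values were exactly 0. None of the 3 pollen markers, from a tissue that seedlings lack, was in the table. Xylem markers were higher with ABA on average, as were XTH27 and XTH28, while XTH4, also studied in xylem, was lower. At 60 h the summed xylem markers of ABA and mock overlapped, where XTH28 had its largest difference (1.42). Summed endodermis markers were lower with ABA at 60 h, where XTH4 and XTH31 were also lower. At 4 h these sums were higher with ABA, and XTH31 was called lower there too. The part of tissue make-up in these results was not tested.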

How the data were processed

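Per the file headers, the deposited values were RPKM of 18310 genes in each of 28 libraries, with the authors' log2 fold change and FDR (an adjusted p-value) of ABA against mock at each time. Poly(A) libraries came from a stranded Illumina kit, per the labels' protocols. The submitters' processing notes name HTSeq 0.5.4, edgeR 3.6.2 and TAIR10, with no options; the aligner is not given in the sources used here. The members are the XTH loci present in the table, taken by locus with no further filter on values. By its name the deposited table was already filtered on CPM, so both the members and all genes set beside them passed that filter. That family, and the other lists, were picked for study with earlier results of these data known.

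RPKM values were whole multiples of 1 read in 100.0% of 512680 cases (within 0.01 reads). Main tests used limma 3.58.1 (R 4.3.3) on log2(RPKM + 1), with 14 group means and an intensity trend and two-sided p-values. There were 14 residual degrees of freedom, and the median SE of a difference at a single time was 0.19. With 2 libraries per group no exact test at a single time can pass, so the spread is pooled over groups. Nothing in the labels tells whether the replicates came from different cultures; the p-values therefore reflect library-to-library spread, which may be technical. Same-numbered ABA and mock libraries deviated together, with correlations across genes of 0.43 to 0.74 over the 7 times, so the numbers were taken to pair libraries, and blocked values are given where they change a call of a member.

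Every member may be named. Values in all libraries are given for members called at some time with an absolute log2 difference of at least 1, and for the most abundant. Alternatives were a pseudocount of 0.1, a mean RPKM of at least 1, median-ratio and quantile scaling, voom weights on recovered reads, the replicate block, each time alone and leaving out each library. The fits were tested on simulated data, but no result of that test is given here, so it adds no support for either fit. Positions and sequences are from RefSeq (TAIR10.1, the nuclear coordinates of TAIR10), and were read with Biopython 1.88. BGLC1 and BGLC3 carry no such symbol there. Protein sequences are not printed.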

Additional observations from a re-analysis of the deposited data

Results flagged for a closer look

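The ABA effect differed between 60 h and 4 h, by limma's test of that difference, for 3 members. XTH25 had the largest such difference, 3.55 on the log2 scale (SE 0.49, adjusted p = 0.000323), and kept its call in all 28 fits that leave out a library. XTH11 differed by 1.37 (SE 0.30, adjusted p = 0.0168), with a call lost without replicate 2 of ABA or of mock at 4 h, either ABA library at 60 h, or replicate 1 of mock at 60 h (adjusted p = 0.0501 to 0.102). XTH28 differed by 1.17 (SE 0.28, adjusted p = 0.0316), with a call lost without any of the 4 libraries of 4 h, replicate 1 of ABA at 60 h, or either mock library at 60 h (adjusted p = 0.0575 to 0.155).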

How the results depend on the processing

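With the replicate block, members called numbered 6 at 4 h, 12 at 8 h, 12 at 12 h, 15 at 24 h, 14 at 36 h, 11 in the F test of ABA by time and 9 for 60 h against 4 h; its other counts of members stayed within 1.5 times. Xyloglucan genes called numbered 5, 7, 6, 7, 9 and 6 at 4, 8, 12, 24, 36 and 60 h with the block, against 2, 2, 3, 2, 5 and 2 without it, and 12 against 10 in the average. The blocked counts are 23.8%, 33.3%, 28.6%, 33.3%, 42.9% and 28.6% of the list, and 57.1% in the average. Of all genes the block called 27.3%, 25.0%, 28.4%, 24.4%, 29.7% and 28.6%, and 58.0% in the average. Fits on the 4 libraries of a time alone called 4 members at 4 h, 5 at 36 h and 3 at 60 h. The share of all genes called by those fits is not given, so their counts cannot be set against it. Leaving out 1 library gave 0 to 1 members at 1 h, 0 to 3 at 4 h, 2 to 6 at 8 h, 1 to 5 at 12 h, 4 to 8 at 24 h, 4 to 9 at 36 h, 4 to 9 at 60 h, 15 to 18 in the average, 2 to 4 in that F test, 1 to 4 for 60 h against 4 h, 13 to 18 for mock over time, 13 to 18 for mock at 60 h against 1 h, and 14 to 19 for ABA at 60 h against 1 h. The difference of XTH23 and XTH14, which did not pass, was -0.19 with a pseudocount of 0.1, -0.04 with quantile scaling and -0.05 to 0.14 with a library left out. That of XTH18 and XTH19 was -0.55 to -0.41 with a library left out. XTH24 at 1 h, -0.52 with all libraries, was -1.11 to 0.08 with a library left out. The causes were not tested. Median-ratio scaling, a pseudocount of 0.1, a mean RPKM of at least 1, quantile scaling and voom kept every count of members within 1.5 times. Of the members' largest differences, 10 were called with the block and not without it. Depth limits XTH10, XTH14, XTH25 and XTH32, whose lowest libraries held 5 to 12 reads.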
